A study of Mus musculus with 9 samples.

Results

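Spp1, Gpnmb, Lgals3, Trem2, Fabp5, Cd9 and Apoe were followed here in single-nucleus RNA sequencing (sNuc-seq) of the mouse heart. They are 7 of the 23747 genes in the tables and were chosen by name as genes that injury raises in macrophages, from results of these same mice. The differences of injured hearts, after ischemia-reperfusion (I/R), from sham hearts are therefore descriptions. The only comparison of the 7 genes read as a test is that of SBP against I/R. It shares the I/R mice with the choice of the genes and is not free of that choice. The hearts came from 9 C57BL/6 mice, 8 weeks old, with 3 separate mice in each of 3 groups, and the tissue below the ligation was used. Sham mice were gavaged with vehicle for 7 days, and then a needle was passed around the coronary artery without ligation. I/R mice had the same vehicle, 30 min of ligation of the left anterior descending artery and 24 h of reperfusion. SBP mice were gavaged for 7 days with Shexiang Baoxin Pill (SBP, named MUSKARDIA in the labels) before the same ligation and reperfusion. All mice were anesthetised, operated on and given penicillin afterwards, and a mouse without an operation was not part of the design.

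Macrophages that enter injured tissue take up dying cells, and with them a load of lipid and protein that the lysosome has to digest. Spp1 encodes osteopontin, a secreted protein that binds integrins and CD44. Gpnmb encodes a glycoprotein of lysosomal and cell membranes, and Lgals3 encodes galectin-3, which binds sugar chains and gathers on damaged lysosomes. Trem2 is a receptor for lipids and lipoproteins, Apoe the apolipoprotein that carries lipid out of the cell, Fabp5 a cytosolic carrier of fatty acids, and Cd9 a tetraspanin of the cell membrane. Macrophages rich in several of these transcripts have been described in fibrotic, fatty and infarcted tissue.

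The sequences just upstream of both genes that lead the group are shown because the 2 transcripts were found in the same nuclei more often than their single shares gave. Each run holds the 250 bases before the start of the gene in RefSeq (GRCm38.p6, plus strand, 5′ to 3′), with matches to the searched letters in capitals. The searched letters were ACCACA (the core that RUNX factors bind), GAGGAA (PU.1 core), TGANTCA (AP-1), CATGTG (an E-box of the MiT/TFE family) and TGACGT (the short CRE), on both strands.
Spp1, chr5:104434861-104435110: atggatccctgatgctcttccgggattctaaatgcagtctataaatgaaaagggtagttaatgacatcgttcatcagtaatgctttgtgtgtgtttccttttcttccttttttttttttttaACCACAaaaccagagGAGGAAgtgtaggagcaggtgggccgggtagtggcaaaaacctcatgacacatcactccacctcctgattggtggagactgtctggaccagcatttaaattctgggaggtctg
Gpnmb, chr6:49036268-49036517: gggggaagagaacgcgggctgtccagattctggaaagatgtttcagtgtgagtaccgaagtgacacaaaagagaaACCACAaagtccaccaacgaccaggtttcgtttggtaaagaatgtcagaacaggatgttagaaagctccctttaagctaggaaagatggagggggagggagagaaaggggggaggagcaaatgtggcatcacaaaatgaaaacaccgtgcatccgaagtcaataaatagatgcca
ACCACA lay 128 bases before the start of Spp1 and 175 bases before that of Gpnmb, and 14.0% of the 32851 RefSeq windows of this length held it. GAGGAA lay 113 bases before the start of Spp1, and 23.3% of all windows held it. Another RefSeq start of Spp1 had no match in its window. Of the 7 genes, 6 had an entry, and Fabp5 is named only. Among the others, TGANTCA lay 9 bases before the start of Trem2 (6.75% of windows), GAGGAA 40 bases before that of Trem2 and 250 and 132 bases before 2 starts of Apoe, and CATGTG 38 bases before that of Cd9 (12.3%). None of the 6 held TGACGT, which was in 6.47% of windows. These matches describe letters and not sites at which a factor was measured.

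The genes lie apart in the genome (GRCm38), with Spp1 at chromosome 5, 104435118 to 104441050, and Gpnmb at chromosome 6, 49036546 to 49070929, both on the plus strand. Lgals3 lies on chromosome 14 and Trem2 on chromosome 17. Fabp5 lies on chromosome 3, Cd9 on chromosome 6 at 125460266 to 125494791 on the minus strand, and Apoe on chromosome 7. Spp1 overlaps the annotated Gm42793 on its own strand, so reads of this pair may have been split or shared in counting. Cd9 overlaps Gm28809 and Gm26728 on the other strand, and their part in its counts was not tested.

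The 9 hearts gave 49171 nuclei and 135423853 unique molecular identifiers (UMIs, 1 per captured transcript). The study states a larger number of cells after quality control, and what accounts for the difference was not tested. A mouse had 4576 to 6418 nuclei and 10329520 to 18205985 UMIs, with a median of 1540 to 2031 UMIs per nucleus. Barcodes were shared between libraries by 580 nuclei (1.18%), with 4 to 14 barcodes shared by any pair of libraries. Nuclei were clustered without the 7 genes, and macrophage-like nuclei numbered 8986, of which 1803 were from sham, 4420 from I/R and 2763 from SBP mice. They made up 2 clusters, and in each of them 8 of 8 macrophage markers had a UMI in over 10% of nuclei. One was led by Cd163, Rbpj and F13a1 and held 98.3% of the sham macrophages, 29.6% of those of I/R and 39.3% of those of SBP. The other was led by Adam8, St18 and Arg1 and held 1.72%, 70.4% and 60.7%, so values of macrophages in sham and injured hearts come mostly from different clusters.

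In macrophages of sham hearts, Spp1 and Gpnmb were all but missing, with 1 UMI each among 1803 nuclei. Levels are given as CPM, the UMIs of a gene scaled to the same total of macrophage UMIs in each mouse by trimmed mean of M values (TMM) factors. In I/R mice 1, 2 and 3, Spp1 stood at 981, 94.5 and 270.1 CPM, and in SBP mice at 174, 456 and 287 CPM. All 6 injured mice lay far above all 3 sham mice, and the I/R mice themselves were spread widely. Gpnmb, the membrane glycoprotein, stood at 953, 108 and 360.1 CPM in I/R mice and at 134, 731 and 199.97 CPM in SBP mice. The same mice were high and low for both genes, with I/R replicate 1 the highest and I/R replicate 2 the lowest of all injured hearts. Sums of markers, here and below, are CPM without TMM factors. The 8 macrophage markers summed to 6367 CPM in I/R replicate 1 and 7280 CPM in SBP replicate 2, the mice that led their groups. In the other 4 injured mice they summed to 11334 to 13194 CPM, and their part in the result was not tested. Against the single sham UMI, the ratio for Spp1 was 1612 (95% exact interval 289 to 63667) in I/R and 1017 (182 to 40186) in SBP, and for Gpnmb 1645 (295 to 64979) and 1364 (245 to 53889). These intervals cover counting error only. One mouse carried much of each sum. Without I/R replicate 1 the ratio was 491 for Spp1 and 626 for Gpnmb, and without SBP replicate 2 it was 678 and 489.

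Lgals3 was measurable without injury. It stood at 33.8, 29.9 and 57.2 CPM in sham mice, at 494, 232 and 411 CPM in I/R mice and at 312, 759 and 314 CPM in SBP mice. The injured groups did not overlap the sham group. The lipid receptor Trem2 stood at 24.9, 26.3 and 25.98 CPM in sham, 155, 40.2 and 66.2 CPM in I/R and 60.7, 128 and 61.9 CPM in SBP mice. Fabp5, the fatty acid carrier, stood at 7.11, 18.1 and 14.8 CPM in sham, 229, 56.9 and 72.9 CPM in I/R and 60.7, 139 and 86.6 CPM in SBP mice. For both genes every injured mouse lay above every sham mouse, and the margin was smallest in I/R replicate 2.

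Cd9 and Apoe were the members that differed least between I/R and sham. Cd9, the tetraspanin, stood at 21.3, 24.5 and 34.1 CPM in sham, 31.5, 32.1 and 32.4 CPM in I/R and 57.4, 53.8 and 36.6 CPM in SBP mice. Its I/R values lay inside the sham range, and its SBP values lay above both other groups. Apoe, the lipid carrier, stood at 236, 272 and 483 CPM in sham, 995, 256 and 702 CPM in I/R and 467, 513 and 384 CPM in SBP mice, so that its groups overlapped. In all, 5 of the 7 genes lay higher in every I/R mouse than in every sham mouse, which also held for 21% of the 10716 genes tested in macrophages. This count belongs to the contrast that chose the genes, and nothing is read from it.

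**Figure D1:**
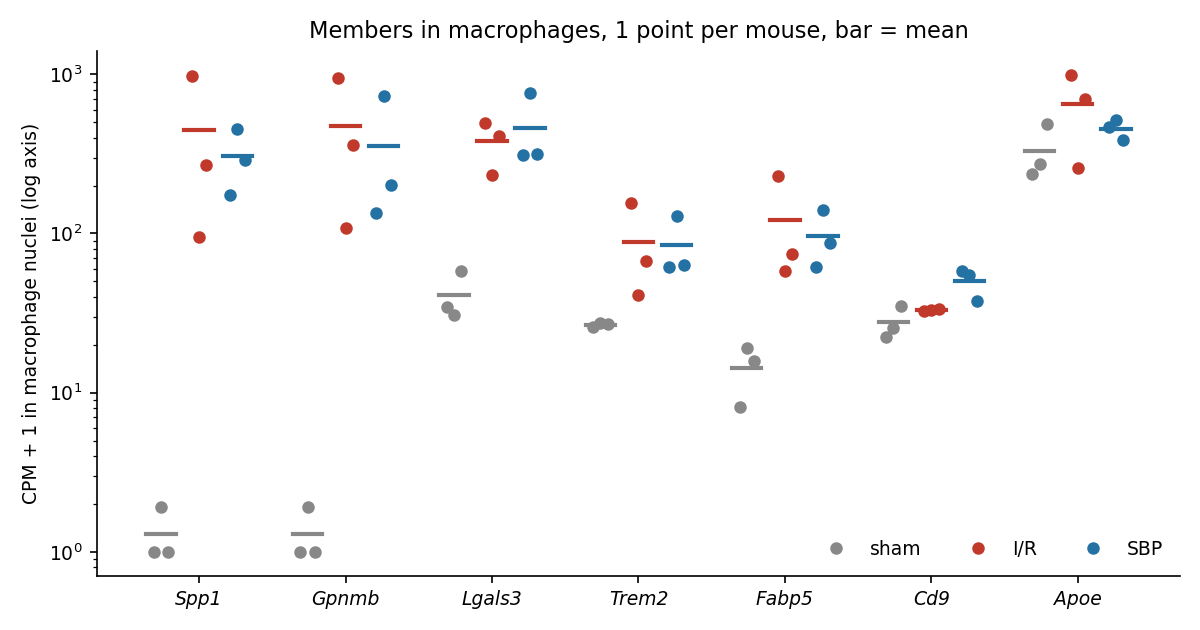
Level of each of the 7 genes in macrophages as CPM + 1 on a log axis, with 1 point per mouse and a bar at the mean of 3 mice, for sham, I/R and SBP. Spp1 and Gpnmb lie at or near 0 in sham mice and between 94.5 and 981 CPM in the 6 injured mice, while Cd9 and Apoe overlap between sham and I/R.

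On the log2(CPM + 1) scale of the fit, I/R lay above sham by 7.89 ± 0.78 (SE) for Spp1, 8.08 ± 0.86 for Gpnmb, 3.19 ± 0.41 for Lgals3 and 2.88 ± 0.55 for Fabp5. The values were smaller for Trem2 (1.50 ± 0.44), Apoe (0.84 ± 0.46) and Cd9 (0.28 ± 0.23). With sham near 0, the sizes for Spp1 and Gpnmb depend on the pseudocount of 1 CPM and are not bounds. That of Apoe was 1.42 without I/R replicate 2. Monocyte markers summed to 153 to 174 CPM in macrophages of sham mice, 492 to 1339 CPM in I/R and 662 to 699 CPM in SBP mice. Neutrophil markers summed to 99.8 to 139, 224 to 619 and 163 to 264 CPM. Fibroblast markers summed to 596 to 824, 742 to 1075 and 861 to 910 CPM, higher in every SBP mouse than in every sham mouse. Cycling markers summed to 50.9 to 136, 54.5 to 191 and 28.9 to 107 CPM, and these groups overlapped. The 3 lists that follow were lower after injury. Cardiomyocyte markers summed to 5716 to 6733 CPM in sham, 1605 to 2665 CPM in I/R and 1819 to 2351 CPM in SBP mice, B cell markers to 897 to 1163, 269 to 365 and 365 to 642 CPM, and dendritic cell markers to 168 to 267, 29.2 to 69.7 and 50.4 to 89.8 CPM. The part of such cells or of their RNA in the results was not tested.

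The question whether pre-treatment changed these transcripts was put to limma over all genes tested in macrophages (SBP against I/R), and no member was called. The same I/R mice served to choose the genes as ones that injury raises, so the comparison is not free of that choice. The difference was −0.05 ± 0.78 on the log2 scale for Spp1, with an interval of 2 SE either side from −1.60 to 1.51, and −0.31 ± 0.86 for Gpnmb (−2.02 to 1.41). These intervals hold changes of more than 2-fold in either direction. Lgals3 differed by 0.22 ± 0.41, Trem2 by 0.07 ± 0.44, Fabp5 by −0.13 ± 0.55 and Apoe by −0.32 ± 0.46. Without I/R replicate 1 the difference was 0.82 for Spp1 and 0.45 for Gpnmb, and without I/R replicate 2 it was −0.88 and −1.14, so 1 mouse decided its sign. Cd9 was the only member whose SBP and I/R mice did not overlap, where every SBP mouse lay above every I/R mouse for 4.09% of all genes. Its difference was the largest of the 7 in size, with 0.58 ± 0.23 (0.11 to 1.05), and it did not pass the correction either. Benjamini-Hochberg adjusted p was 0.9996 for each of the 7 genes. Of 10716 genes, limma called 0 (0%), and 407 had an unadjusted p under 0.05. The number of genes called was 10 without I/R replicate 1.

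SBP against sham is given as a description too, since the genes were chosen with results of these mice known and the sham mice are the same. Spp1 and Gpnmb also entered the fit only through the injured mice, in which they are high. Levels in SBP macrophages lay above sham by 7.84 ± 0.78 (log2, SE) for Spp1, 7.77 ± 0.86 for Gpnmb and 3.41 ± 0.41 for Lgals3. The differences were 2.76 ± 0.55 for Fabp5, 1.57 ± 0.44 for Trem2, 0.86 ± 0.23 for Cd9 and 0.52 ± 0.46 for Apoe. At an adjusted p up to 0.05 and a log2 difference of over 0.25 in size, limma called 6 of the 7, all but Apoe, and 13% of the 10716 genes (7.52% as higher). Each SBP mouse lay above each sham mouse for the same 6 genes, as it did for 20% of all genes. Nothing is read from these counts, and they moved with the fit. Without SBP replicate 2 the number called was 3, and by limma-voom it was 1, Lgals3.

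In cardiomyocytes, fibroblasts and endothelial cells, Spp1, Gpnmb and Lgals3 also stood higher after injury, at lower CPM than in macrophages of the same mouse in all 6 injured mice. Cardiomyocytes, endothelial cells and fibroblasts of sham mice held 1, 3 and 0 UMIs of Spp1 in all. In I/R mice 1, 2 and 3, endothelial cells had 637, 42.0 and 107 CPM of Spp1, and in SBP mice 41.4, 189 and 55.8 CPM. Fibroblasts had 363, 38.5 and 82.0 CPM in I/R mice and 31.9, 114 and 56.0 CPM in SBP mice. For the 7 genes, 4 lay higher in every I/R mouse than in every sham mouse in each of these types, which held for 7.63% of all genes in cardiomyocytes, 10.4% in endothelial cells and 15.1% in fibroblasts. For SBP mice the number was again 4 in each type, with 11.3%, 11.7% and 15.9% of all genes. As in macrophages, I/R replicate 1 was the highest and SBP replicate 2 the highest of its group. Over the 4 types and 7 genes, I/R replicate 1 led the I/R mice in 24 of 28 values and SBP replicate 2 the SBP mice in 23 of 28. Against a floor of 3 UMIs over the sham group, Spp1 summed over the fibroblasts of a group was 461-fold higher in I/R and 187-fold higher in SBP. Without I/R replicate 1 and SBP replicate 2 these values were 168-fold and 119-fold. The floor covers counting error in sham only, and the values are not bounds for the spread between mice.

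Against sham, again as a description, SBP fibroblasts lay higher by 5.91 ± 0.72 (log2, SE) for Spp1, 2.79 ± 0.31 for Gpnmb and 3.40 ± 0.41 for Lgals3. Endothelial cells lay higher by 5.75 ± 0.89 for Spp1, 3.06 ± 0.93 for Gpnmb and 3.78 ± 0.58 for Lgals3, and cardiomyocytes by 4.48 ± 0.85 for Spp1 and 3.18 ± 0.43 for Lgals3. The numbers of the 7 genes past the threshold were 3 in fibroblasts, 2 in endothelial cells and 1 in cardiomyocytes, where limma called 6.05%, 2.13% and 0.139% of all genes, and nothing is read from them. They were 1, 0 and 0 by limma-voom, and leaving out 1 mouse gave 0 to 2 in endothelial cells and in cardiomyocytes. SBP against I/R gave no call of any member in these types and 0 calls among all genes (0%) of each type by limma. An unadjusted p under 0.05 was found for 272 genes in cardiomyocytes, 635 in endothelial cells and 461 in fibroblasts.

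Counted per nucleus, Spp1 was highest in macrophages in each injured mouse among the types with most nuclei, but the other types held a like level of it. In I/R replicate 1, a macrophage nucleus held a mean of 2.08 Spp1 UMIs, against 1.02 in T and B cells together, 1.08 in cardiomyocytes, 1.07 in endothelial cells and 1.04 in fibroblasts. In SBP replicate 2 the mean was 0.944 in macrophages and 0.287, 0.343, 0.320 and 0.319 in these types, in the same order. The other types thus lay close to each other in these mice and moved together from mouse to mouse, with T and B cells lower in SBP replicate 3 (0.0351, from 2 UMIs in 57 nuclei, against 0.0947 to 0.116 in the other 3 types). Over the 6 injured mice, the macrophage level was 3.39 times that of cardiomyocytes (median, range 1.92 to 5.89), 3.15 times that of endothelial cells (1.94 to 6.26) and 3.03 times that of fibroblasts (2.00 to 5.12).

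For Gpnmb the step from macrophages to the other types was larger. In I/R replicate 1, the mean was 2.02 UMIs in a macrophage nucleus and 0.157, 0.174, 0.138 and 0.151 in T and B cells, cardiomyocytes, endothelial cells and fibroblasts. The other types lay close to each other in this mouse as well. T and B cells had no Gpnmb UMI in 4 of the 6 injured mice, with 54 to 57 nuclei in each. The macrophage level of Gpnmb was 27.7 times that of endothelial cells (median of 6 injured mice, range 14.6 to 87.0), 21.3 times that of cardiomyocytes (8.49 to 58.6) and 9.45 times that of fibroblasts (3.74 to 18.9). In I/R nuclei pooled over mice there were 1.02 Gpnmb UMIs for each Spp1 UMI in macrophages. The number was 0.143 in T cells, 0.242 in fibroblasts, 0.185 in cardiomyocytes and 0.135 in endothelial cells. Without I/R replicate 1 it was 1.28 in macrophages, 0.546 in fibroblasts, 0.288 in cardiomyocytes and 0.160 in endothelial cells, with 0 Gpnmb and 15 Spp1 UMIs in T cells. In neutrophils it was 1.03, but 34 of the 36 Gpnmb UMIs there came from I/R replicate 3, beside 11 of 35 Spp1 UMIs. The differences between types were not tested.

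**Figure D2:**
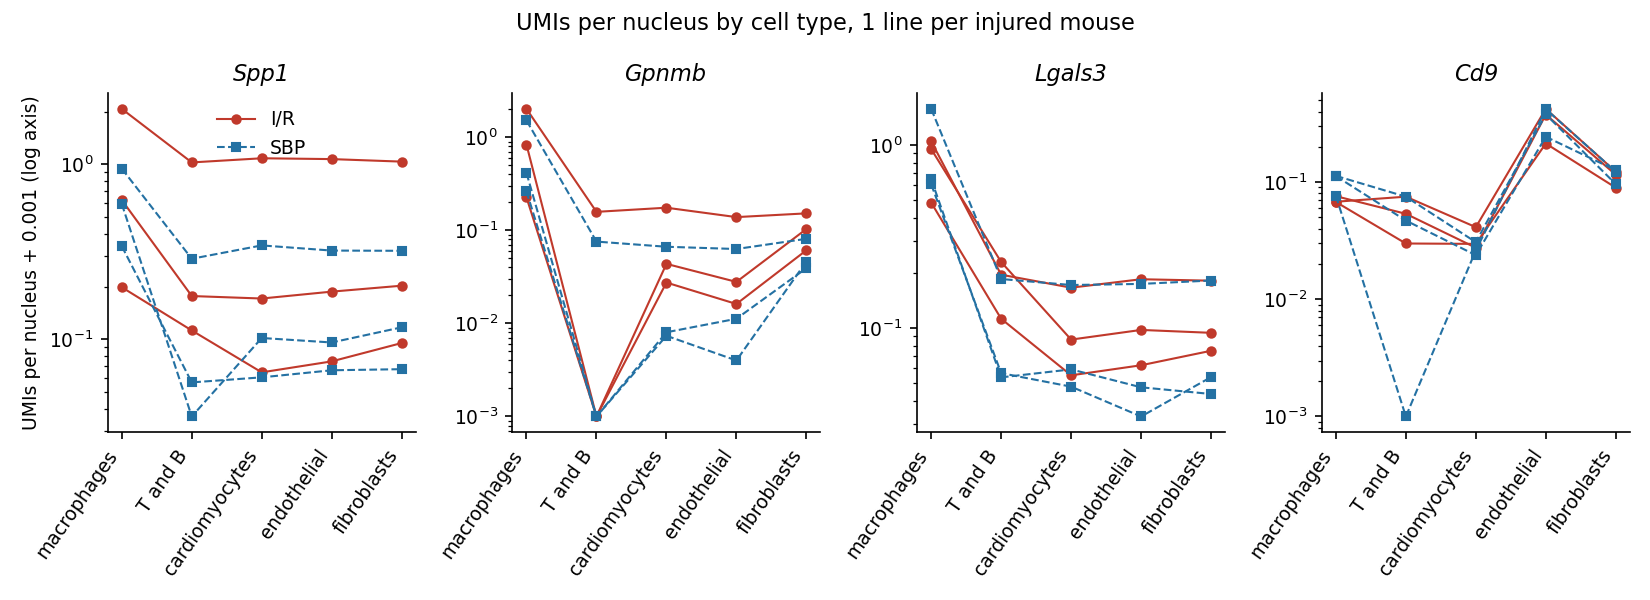
Mean UMIs per nucleus (plus 0.001, log axis) of Spp1, Gpnmb, Lgals3 and Cd9 in macrophages, T and B cells, cardiomyocytes, endothelial cells and fibroblasts, with 1 line per injured mouse. For Spp1 the types other than macrophages lie near each other within a mouse, such as 1.02 to 1.08 in I/R replicate 1, while Gpnmb falls further from macrophages to the rest.

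The members differed in how far their transcripts were found in macrophages. Macrophages were 25.6% of I/R nuclei and 17.4% of SBP nuclei. They held 83.1% of all Gpnmb UMIs in I/R and 84.8% in SBP, 75.1% and 78.0% of those of Trem2, and 71.4% and 72.0% of those of Lgals3. Without I/R replicate 1 these shares were 71.0% (Gpnmb), 73.8% (Trem2) and 67.9% (Lgals3) in I/R. Without SBP replicate 2 they were 69.3%, 73.7% and 65.1% in SBP, so the order of Gpnmb and Trem2 changed. The share for Spp1 was lower, with 48.1% and 48.6% (41.8% and 44.2% without these mice). Macrophages held 46.6% and 36.7% of Apoe UMIs (41.2% and 30.0% without these mice). Of Fabp5 they held 44.2% in I/R (33.1% without I/R replicate 1). In SBP they held 31.5% of it (14.0% to 45.0% by mouse, and 18.8% without SBP replicate 2), where endothelial cells held 42.6%. Of Cd9 they held 12.5% in I/R (8.82% without I/R replicate 1) and 11.1% in SBP (5.25% to 22.9% by mouse, and 6.49% without SBP replicate 2). Endothelial cells held the most Cd9, 59.2% and 60.8%. In sham hearts, 20 of the 26 Gpnmb UMIs were in fibroblasts. Ordered by the median CPM (without TMM factors) over injured mice, macrophages came first for Gpnmb, Lgals3 and Trem2 and lay above the type second in that order in 6 of 6 mice. In I/R replicate 3, Gpnmb stood at 652 CPM in neutrophils (51 nuclei) and 366 CPM in macrophages, while per nucleus neutrophils lay lower, at 0.667 UMIs against 0.832. For Spp1 they came first and lay above neutrophils in 4 of 6 mice by CPM and in 6 of 6 by UMIs per nucleus, with 14 to 83 neutrophil nuclei in a mouse.

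Macrophage markers moved with the groups in the other types. They summed to 316 to 426 CPM in endothelial cells of sham mice, 571 to 620 CPM in I/R and 292 to 414 CPM in SBP mice. In fibroblasts the sums were 192 to 249, 292 to 430 and 170 to 271 CPM, and in cardiomyocytes 87.6 to 118, 142 to 205 and 83.5 to 114 CPM. The sums of SBP mice lay within or near those of sham mice. Spp1 and Lgals3 lay above sham in the same SBP nuclei, as they did in SBP macrophages. In macrophages these sums were lowest in I/R replicate 1 and SBP replicate 2, the mice highest in Spp1. The sums therefore do not measure how much Spp1 macrophage RNA would carry, and nothing is read from them on that point. None of the 8 markers was at 0 in these types, and the part of macrophage RNA in the values was not tested.

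How far the members rose in macrophages beyond another type was computed as the difference of both log2 levels within each mouse, SBP against sham. Since the genes were chosen as ones that rise in macrophages of these mice, these values are descriptions. Gpnmb stood 5.86 ± 0.39 (SE) further above sham in macrophages than in cardiomyocytes, 4.71 ± 0.37 further than in endothelial cells and 4.98 ± 0.62 further than in fibroblasts. The values for Spp1 were 3.36 ± 0.36, 2.09 ± 0.35 and 1.94 ± 0.28. Those of Fabp5 were 2.33 ± 0.30, 2.98 ± 0.37 and 2.53 ± 0.33. limma called these 3 genes in all 3 comparisons, where it called 7.96%, 5.73% and 6.81% of all genes, and nothing is read from that count. Lgals3 stood at 0.23, −0.38 and 0.01, with a sign that changed with the pseudocount, and neither it nor Trem2, Cd9 or Apoe was called. With Spp1 and Gpnmb at 0 or 1 UMI in most sham sums, their sizes depend on the pseudocount.

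For single nuclei, each was thinned at random to 1000 UMIs so that depth did not set detection, and nuclei with fewer UMIs were left out. In macrophage nuclei of sham mice, 0.0508% ± 0.0880 (SD, n = 3) had a Spp1 UMI, and the share was 25.0% ± 23.6 in I/R mice and 16.9% ± 9.57 in SBP mice. Gpnmb had one in 0 of 1795 thinned sham nuclei, for which counting error alone allows a share of up to 0.167%, and in 19.1% ± 16.0 and 14.0% ± 11.7 of I/R and SBP nuclei. The wide SDs come from the mice that also led in CPM. Lgals3 was found in 3.83% ± 0.31, 23.3% ± 6.48 and 25.7% ± 11.9 of the nuclei of sham, I/R and SBP, and Apoe in 25.7% ± 6.61, 42.7% ± 20.1 and 34.7% ± 3.82. Shares of Trem2 were 2.20%, 8.28% and 7.70%, of Fabp5 1.31%, 9.51% and 7.82%, and of Cd9 2.59%, 2.77% and 4.02%. By a two-sided exact permutation test of SBP against I/R, which cannot go below 0.1 with 3 mice against 3, p was 0.7 for Spp1 and Gpnmb, 0.8 for Lgals3 and 0.2 for Cd9, and adjusted over the 7 genes it was 0.8 for each.

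For Spp1 the share in other types is given beside that of macrophages. In I/R replicate 1, 1110 of 2149 thinned macrophage nuclei (51.7%) had a Spp1 UMI, and so did 66 of the 102 T cell nuclei that had 1000 UMIs (64.7%) and 478 of 990 endothelial nuclei (48.3%). Without thinning the shares were 72.0%, 65.2% and 64.5%, at a median of 1828 UMIs in macrophages and 987 in T cells. Macrophages thus lay below T cells with thinning and above them without it, so no expression beyond the level in T cells is read from the share in this mouse. In SBP replicate 2, the share was 27.6% in macrophages, 18.8% in T cells and 18.6% in endothelial cells. For Gpnmb the shares in I/R replicate 1 were 37.0% in macrophages, 13.7% in T cells and 7.68% in endothelial cells, with macrophages above both.

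Spp1 and Gpnmb were found in the same macrophage nuclei more often than the product of their shares gave, in 6 of 6 injured mice. In I/R mice 1, 2 and 3, both had a UMI in 485, 19 and 39 nuclei, where the product gave 410.6, 5.28 and 22.5. In SBP mice the numbers were 16, 182 and 19 against 3.76, 112 and 7.14. The excess was smallest, as a ratio, in I/R replicate 1, the mouse with most Spp1 in every cell type. As a log2 odds ratio (0.5 added to each cell of the table) co-detection was 1.52 ± 0.82 (SD, n = 3) in I/R and 2.27 ± 0.75 in SBP, a difference of 0.75 (two-sided exact permutation p = 0.3). Within macrophage subclusters, by the Mantel-Haenszel method, it was 0.79 ± 0.70 and 1.06 ± 0.72, so part of the joint detection lay between subclusters. Nuclei of 1 mouse share its free RNA and its library, and no p is given for nuclei. The 7 genes were chosen with results of these mice known. Their co-detection with each other, here and below, is therefore a description.

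Among the other pairs, the closest was Gpnmb with Lgals3, at a median log2 odds ratio of 2.42 over the 6 injured mice (range 1.53 to 2.96). Gpnmb with Fabp5 stood at 2.02, Spp1 with Lgals3 at 1.18, Gpnmb with Trem2 at 1.10 and Spp1 with Fabp5 at 1.07. Of the 21 pairs, 11 lay above 0 in all 6 mice. None of these held Cd9, and few nuclei had a Cd9 UMI, so its pairs are weakly measured. Apoe went with the group only in part, with −0.01 for Spp1 and Apoe and 0.50 for Gpnmb and Apoe. Against genes of resident macrophages, 4 of the 7 members had pairs below 0 in all 6 mice, with −2.22 for Gpnmb and Cd163 (the haemoglobin scavenger receptor), −1.15 for Gpnmb and F13a1 and −0.84 for Spp1 and Cd163. Most medians of the members' other pairs with Cd163, Mrc1 and F13a1 were also below 0, such as −0.97 for Fabp5 and Cd163 and −0.89 for Trem2 and F13a1. Some were above 0, with 0.11 for Fabp5 and Mrc1 and 0.32 for Apoe and F13a1. Gpnmb with the general macrophage gene Adgre1 stood at −0.00583 and lay above 0 in 3 of 6 mice. Csf1r, also a general macrophage gene, stood at −0.69 with Gpnmb, −0.49 with Spp1 and −0.65 with Lgals3, below 0 in all 6 mice. Pairs below 0 were thus not limited to resident genes. The other members lay above 0 with Csf1r in 1 to 5 mice, with a median above 0 for Apoe only (0.17). Arg1, the arginase of repair macrophages, stood at 1.33 with Gpnmb and 0.96 with Spp1, and Cd163 with Mrc1, both resident genes, at 2.00.

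**Figure D3:**
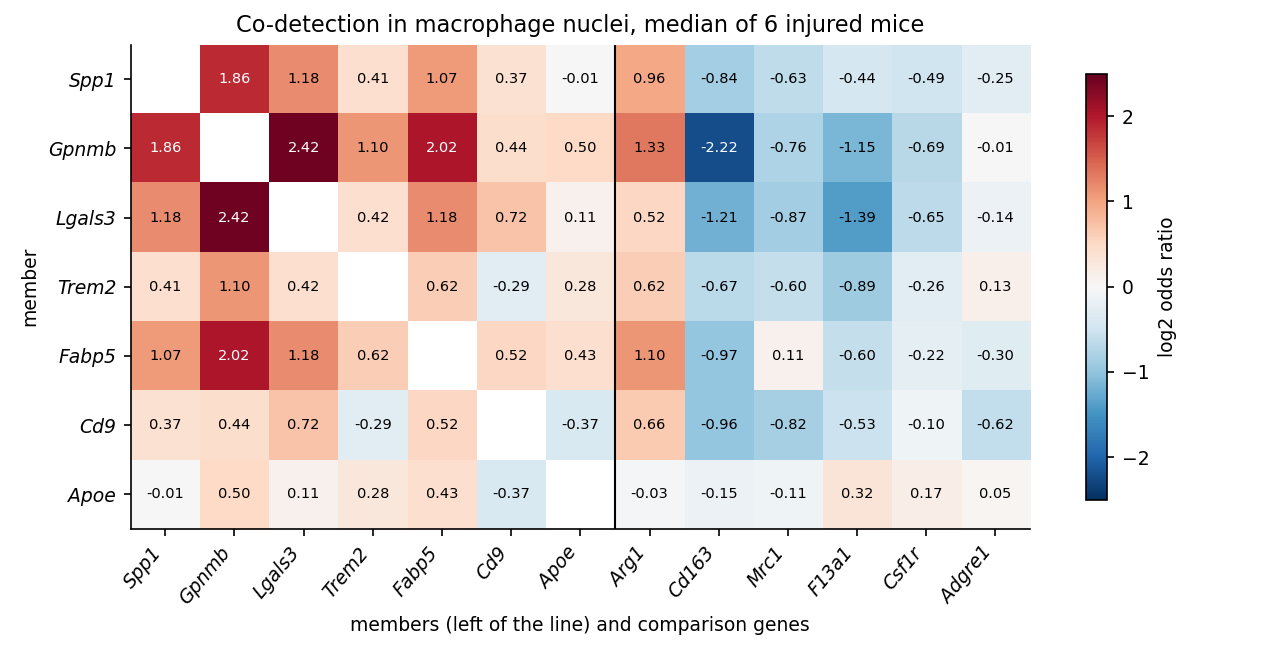
Co-detection in thinned macrophage nuclei as the median log2 odds ratio over 6 injured mice, for each pair of the 7 genes and 6 comparison genes. Gpnmb with Lgals3 (2.42), Gpnmb with Fabp5 (2.02) and Spp1 with Gpnmb (1.86) stand high, and Gpnmb with Cd163 (−2.22) stands low.

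Of 3190 genes with a UMI in at least 5% of thinned macrophage nuclei of each injured mouse, Gpnmb ranked first by co-detection with Spp1. Spp1 ranked 13th for Gpnmb. Since both genes were chosen with results of these mice known, these ranks are descriptions. The genes outside the group most like Gpnmb were F7 (coagulation factor VII, median log2 odds ratio 3.04, range 2.29 to 4.02), Fnip2 (a partner of folliculin, 2.67), St18 (a zinc finger factor, 2.32), Arhgap24 (2.13) and Nav2 (2.11). Lgals3 ranked 3rd for Gpnmb. The genes most like Spp1 were F7 (1.49, range 0.82 to 2.74), Airn (1.23), Rai14 (1.20), Ctsl (cathepsin L, 1.18) and Chst11 (1.14). In 10 other random draws of the thinning, F7, Fnip2 and St18 were among the 5 genes most like Gpnmb each time and Arhgap24 in 8. For Spp1, F7 was so in 9 draws, Airn in 5 and the other 3 genes in 1 or 2, so most of its neighbours changed with the draw.

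A macrophage nucleus thinned to 1000 UMIs held a UMI of 0.357 ± 0.074 of the 7 genes (mean, SD, n = 3) in sham mice, 1.31 ± 0.77 in I/R mice and 1.11 ± 0.43 in SBP mice. Nuclei with 4 or more of the 7 genes were not seen in 1795 sham nuclei. They were 16.8%, 0.855% and 2.71% of the nuclei of I/R mice 1, 2 and 3, and 1.93%, 9.66% and 2.46% of those of SBP mice. The product of the single shares gave 10.98%, 0.114% and 0.920% in I/R mice and 0.311%, 4.25% and 0.402% in SBP mice. In each injured mouse the observed share was higher, by 1.53 to 7.52 times in I/R and 2.27 to 6.20 times in SBP.

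**Figure D4:**
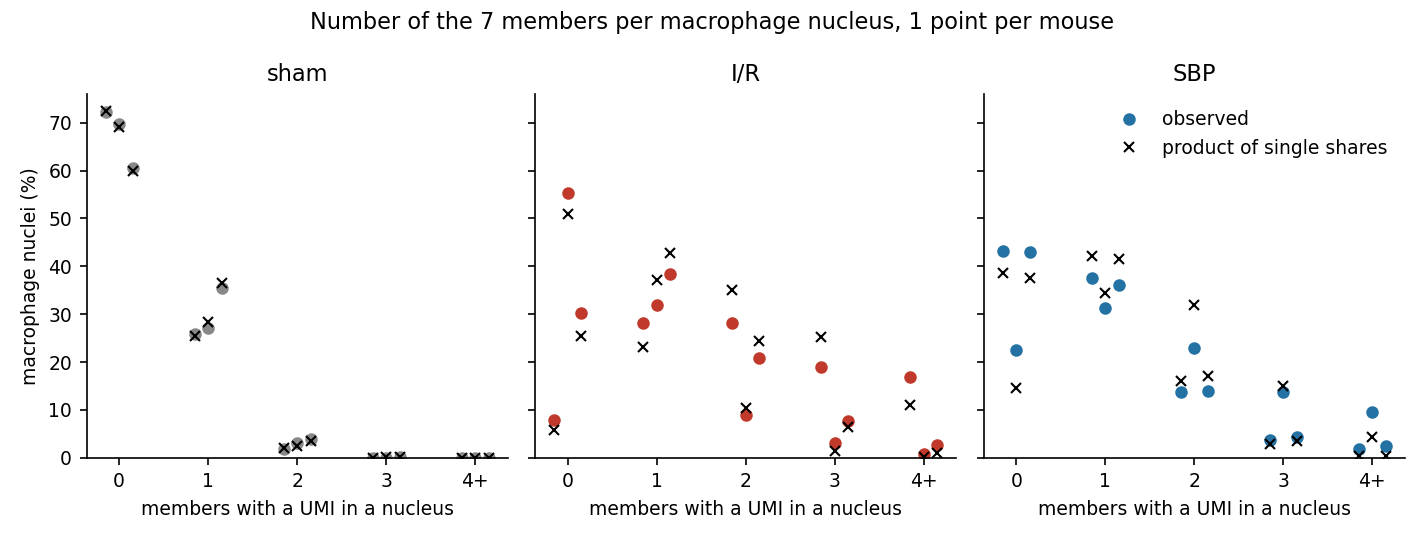
Percent of thinned macrophage nuclei with a UMI of 0, 1, 2, 3 or 4 and more of the 7 genes, by group, with 1 point per mouse and crosses for the product of the single shares. The share with 4 or more is 0 in sham mice and 0.855% to 16.8% in injured mice, above its cross in all 6.

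Macrophages were divided further into 8 subclusters, again without the 7 genes and without naming them beyond their leading genes. The subcluster led by Il7r, F7, Bcar3 and Pdpn had 1532 nuclei, none of them from sham mice. It took 13.5%, 7.62% and 29.0% of the macrophages of I/R mice 1, 2 and 3 and 21.6%, 38.6% and 23.5% of those of SBP mice, ranges that overlap. With 21.3% of the injured nuclei it held 58.2% of their Gpnmb UMIs, 52.7% of Lgals3, 44.4% of Fabp5 and 42.9% of Spp1. Its part was 37.5% for Trem2, 32.8% for Cd9 and 24.3% for Apoe. After thinning, 49.2% of its nuclei had a Gpnmb UMI, 54.2% a Lgals3 UMI and 41.6% a Spp1 UMI. Its part of the Apoe UMIs was thus little above its part of the nuclei.

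The subcluster led by Cd5l, Hpse and Ms4a7 was the other with many Gpnmb nuclei (42.7%) and, over pooled injured nuclei, had the highest share with Spp1 (48.1%). Of its 1275 nuclei, 1081 came from I/R replicate 1, so its values are largely those of that mouse. Over SBP nuclei alone, 23.3% of it had a Spp1 UMI, against 38.6% in the subcluster led by Il7r and F7. The mean Spp1 level over injured mice with at least 20 nuclei was also lower, at 582 CPM (SD 373, n = 3) against 805 CPM (SD 442, n = 6). It held 31.5% of Spp1, 32.2% of Gpnmb, 30.9% of Apoe and 15.8% of Lgals3 UMIs, at 17.6% of the injured nuclei. The subcluster led by Saa3, Slc7a11 and Nos2, with 643 of 661 nuclei from I/R replicate 2, was low, with 7.1% for Spp1, 4.9% for Gpnmb and 18.4% for Lgals3. In the subcluster led by Hif3a, Egfr and Lyve1, 11.3% of injured nuclei had a Spp1 UMI and 1.7% a Gpnmb UMI. The subcluster led by Fat3 and Slc40a1 stood apart within the group, with Lgals3 in 53.0% of nuclei but Gpnmb in 8.6% and Spp1 in 14.2%. In that led by Knl1, Neil3 and Top2a, 22.0% of injured nuclei had a Gpnmb UMI, 24.8% a Spp1 UMI and 27.2% a Lgals3 UMI. Of its 306 nuclei, 149 came from I/R replicate 1. In that led by Vcan, a monocyte marker, 22 of 914 nuclei were from sham mice. Of its injured nuclei, 25.5% had a Spp1 UMI, 6.4% a Gpnmb UMI and 21.1% a Lgals3 UMI. That led by H2-Eb1 and Cd74 had 1512 of its 1859 nuclei from sham mice. Spp1 was found in 0.0664% of its sham, 34.9% of its I/R and 11.8% of its SBP nuclei. Of its 169 I/R nuclei, 140 came from I/R replicate 1.

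**Figure D5:**
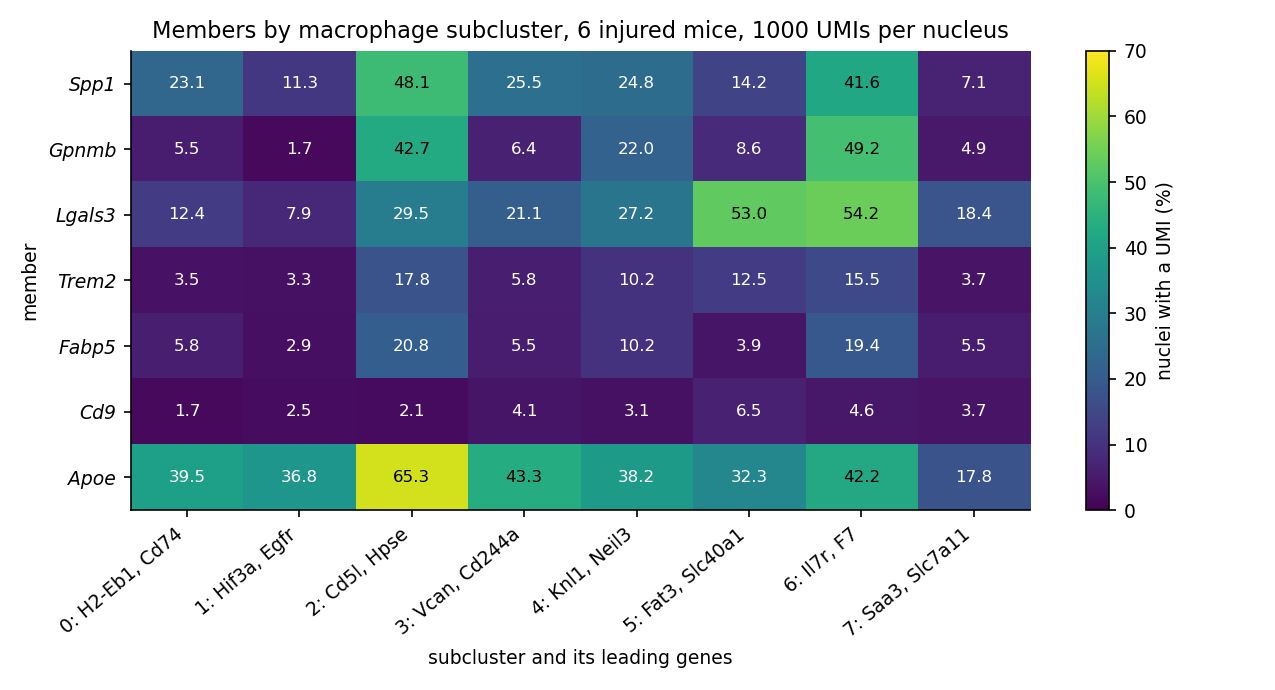
Percent of thinned macrophage nuclei of the 6 injured mice with a UMI of each of the 7 genes, for 8 macrophage subclusters named by their leading genes. Gpnmb reaches 49.2% in the subcluster led by Il7r and F7 and 42.7% in that led by Cd5l, against 1.7% in that led by Hif3a.

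Genes known to work with the 7 were counted from lists, with values of macrophages as I/R against sham, where limma called 18.5% of all genes and 10.6% as higher. The lists were chosen with earlier results of these mice known. Their counts and adjusted p values, here and below, therefore describe these mice and are not read as tests. The genes named from a list are called ones with the largest differences in it. Of 16 lysosome genes 13 were higher and none lower, at a median log2 difference of 1.39 beside 0.09 over all genes. The proteases Ctsl (3.26 ± 0.25, adjusted p = 1.75e-05) and Ctsd (2.60 ± 0.44, 0.00487) and the proton pump subunit Atp6v0d2 (3.62 ± 0.94, 0.0313) led them. Of 4 MiT/TFE factors, which drive lysosome genes, only Tfec was higher (2.02 ± 0.37, adjusted p = 0.00506). Of 16 genes of lipid uptake and export 9 were higher and 1 lower, led by the lipid droplet coat Plin2 (2.51 ± 0.25), the sterol acyltransferase Soat1 (1.88 ± 0.26) and the receptor Lrp1 (1.78 ± 0.17). Of 8 genes of TREM2 signalling 4 were higher, with the kinase Syk at 0.87 ± 0.18.

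The receptors of osteopontin moved in both directions, with 2 of 8 higher and 2 lower. Cd44 stood at 156 ± 13.8 CPM (SD, n = 3) without injury, 560 ± 370 after I/R and 706 ± 112 after SBP with I/R (1.64 ± 0.36, adjusted p = 0.0136 for I/R against sham). The integrin chains Itga8 (−1.65 ± 0.28) and Itga9 (−1.50 ± 0.26) were lower. Of 4 genes of other galectins and the galectin-3 binding protein 3 were higher, with the binding protein Lgals3bp at 1.27 ± 0.38 and Lgals1 at 1.07 ± 0.20. Of 7 tetraspanins and partners of Cd9, Cd37 was higher (1.04 ± 0.18) and Cd81 lower (−1.04 ± 0.23). Of 10 repair genes 7 were higher, with Fn1 at 3.83 ± 0.38 and Thbs1 at 5.95 ± 0.60, while Arg1 was at 0 in all sham mice and at 431 ± 303 CPM in I/R. Of 9 resident genes 3 were lower, Timd4 (−2.11 ± 0.35), Cbr2 (−1.92 ± 0.44) and Folr2 (−1.16 ± 0.24), and none was higher.

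In SBP against sham, again as a description, limma called 7.52% of all genes as higher and 13% in all. The numbers higher were 10 of 16 for the lysosome, 7 of 16 for lipid genes, 7 of 10 for repair genes and 3 of 8 for osteopontin receptors. They were 2 of 4 for galectins, 1 of 8 for TREM2 signalling, 1 of 4 for MiT/TFE factors and 1 of 7 for tetraspanins and partners of Cd9. Lower were 2 of 8 osteopontin receptors, 1 of 16 lipid genes and 1 of 9 resident genes. The counts for TREM2 signalling, tetraspanins and resident genes lay near the share over all genes, and that of MiT/TFE factors was 1 gene. SBP against I/R gave no call in any of the lists. Lysosome genes stood at a median of −0.14, repair genes at 0.12 and resident genes at 0.48, beside −0.02 over all genes.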

How the data were processed

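Per the study's methods, reads were filtered with fastp, UMIs were counted with CellRanger and samples were down-sampled to like read depth. Nuclei with over 200 genes and under 10% mitochondrial UMIs were kept per these methods, while the deposited nuclei held at least 405 genes each. The submitters' processing notes name Cell Ranger 4.0, Seurat 3.2.0 and GRCm38. The authors deposited natural log values, ln(1 + 10000 × UMIs of the gene / UMIs of the nucleus). Since the lowest value in each nucleus stands for 1 UMI, UMI numbers could be recovered, and at least 99.9994% of the values of a mouse were then whole to within 0.1 UMI.

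Scrublet marked 85 nuclei (0.173%), under 0.5% and taken as not having worked. They were removed, which left 49086. Nuclei were clustered in scanpy 1.11.5 (2000 variable genes without the 7 members, 30 components, 20 neighbours, Leiden resolution 0.6, and 20 components and 0.4 within macrophages). The resolutions were set after the clusters had been seen. Types were named from at least 3 markers in over 10% of nuclei, and names stand for nuclei like the type.

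UMIs were summed per mouse and type (at least 20 nuclei), TMM-scaled and tested as log2(CPM + 1) with limma 3.58.1 (trend, robust, all 9 mice). Genes needed 15 UMIs in all and, in 3 mice, the CPM that 10 UMIs give at the median depth, which all 7 members passed in the 4 types fitted. A difference between types was tested on the within-mouse difference. Thinning to 1000 UMIs used a fixed seed per nucleus. Methods were tested on simulated data.

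The members, lists, tests and naming rule were chosen with earlier results of these data known. Named besides the 7 members were up to 3 called genes per list with the largest I/R against sham difference, and the 5 genes most like Spp1 and Gpnmb in co-detection. Alternatives were another pseudocount, filter or scaling, limma-voom, other doublet and thinning settings, a replicate block and leaving out each mouse. No batch was given in the labels. In the study's supplementary read statistics, all sham libraries lay apart from all injured libraries in low-quality reads and raw GC content. A difference in sequencing would coincide with sham against injured mice, and its part was not tested.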

Additional observations from a re-analysis of the deposited data

Results flagged for a closer look

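Differences between cell types in the SBP against sham response, tested within mice with limma, were past the threshold for 3 of the 7 genes, in macrophages against each of 3 types, where limma called 7.96% (cardiomyocytes), 5.73% (endothelial cells) and 6.81% (fibroblasts) of all genes. Against cardiomyocytes the log2 difference was 3.36 for Spp1, 5.86 for Gpnmb and 2.33 for Fabp5. Against endothelial cells it was 2.09 for Spp1, 4.71 for Gpnmb and 2.98 for Fabp5. Against fibroblasts it was 1.94 for Spp1, 4.98 for Gpnmb and 2.53 for Fabp5. The genes were chosen with the rise in macrophages of these mice known, so these are no independent evidence of a difference, and for Spp1 and Gpnmb their size depends on the pseudocount. Single mice standing apart were not looked for, since that rule was set for groups of 4 or more.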

How the results depend on the processing

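Of 493 alternative values for counts and summary values, 450 were marked as the same, and of 1056 for single genes 950 were. This mark leaves room for a change in size. Fabp5 in cardiomyocytes (SBP against sham, 0.42) ran from 0.14 to 0.61 when 1 mouse was left out, and each of these values was so marked. For SBP against sham, limma-voom called 1 of the 7 genes in macrophages instead of 6, 0 in cardiomyocytes instead of 1, 0 in endothelial cells instead of 2, and 1 in fibroblasts instead of 3. With a pseudocount of 5 CPM the calls were 0 in cardiomyocytes and 1 in endothelial cells, and 5 instead of 3 genes differed between macrophages and cardiomyocytes. A looser filter (any UMI in 3 mice) left 1 call in endothelial cells, and a fit of only the 6 mice compared gave 2 in cardiomyocytes. Leaving out 1 mouse gave 3 to 6 calls in macrophages (3 without SBP replicate 2), 0 to 2 in cardiomyocytes and 0 to 2 in endothelial cells. Over all genes in macrophages it gave 1256 to 1931 calls for I/R against sham (1980 with all mice), 550 to 1678 for SBP against sham (1397 with all mice) and 0 to 10 for SBP against I/R. The lowest values came without I/R replicate 2 and without SBP replicate 2. The cause was not tested.

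The sign of SBP against I/R in macrophages turned when 1 mouse was left out, with ranges of −0.88 to 0.82 for Spp1, −1.14 to 0.45 for Gpnmb, −0.21 to 0.45 for Lgals3, −0.38 to 0.59 for Trem2, −0.54 to 0.48 for Fabp5 and −0.91 to 0.089 for Apoe. Shares of nuclei with a UMI (SBP minus I/R, percentage points) did so too, from −17.2 to 5.25 for Spp1, −11.8 to 3.85 for Gpnmb, −4.44 to 6.23 for Lgals3, −2.61 to 2.48 for Trem2, −3.94 to 2.80 for Fabp5 and −18.8 to 1.06 for Apoe. Without thinning that of Lgals3 was −0.0774. Apoe in I/R against sham ranged from 0.43 to 1.42. Co-detection of Spp1 and Gpnmb in SBP was 1.06 within subclusters.

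None of the other values that changed sign had been called. Leaving out 1 mouse gave, for SBP against sham, −0.0613 to 0.15 for Cd9 in cardiomyocytes, −0.0197 to 0.39 for Fabp5 and −0.0715 to 0.15 for Cd9 in fibroblasts. For macrophages less another type it gave −0.0235 to 0.47 (Lgals3) and −0.22 to 0.47 (Apoe) against cardiomyocytes, −0.31 to 0.058 (Trem2) and −0.0335 to 0.38 (Apoe) against endothelial cells, and −0.38 to 0.40 (Lgals3) against fibroblasts. A pseudocount of 0.5 CPM gave −0.23 for Lgals3 and −0.22 for Trem2 against cardiomyocytes and −0.20 for Lgals3 against fibroblasts. A pseudocount of 5 CPM gave 0.61 for Lgals3 and 0.63 for Trem2 against endothelial cells and 0.70 for Trem2 against fibroblasts. Without TMM factors, Lgals3 against fibroblasts was −0.0594 and Cd9 in cardiomyocytes −0.0128.

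Replicate numbers gave no clear pairing of the mice, with 11 of 36 same-number correlations of deviations above 0.1 (range −0.31 to 0.30). Sham and SBP mice in fibroblasts were the only pair of groups with all 3 above it (0.13 each), and in macrophages all 3 above it were of number 3. All correlations of number 3 were above 0 (0.032 to 0.30). Those of I/R with SBP mice for numbers 1 and 2 were all below 0 (−0.31 to −0.15). Mice of different numbers were not compared, so a batch shared by number was not tested. With the replicate number as a block, 4 members were called in macrophages, 0 in cardiomyocytes, 1 in endothelial cells and 3 in fibroblasts. limma-voom was not run on the differences between types. The 10 other thinning draws for the co-detection neighbours and the sums over mice without 1 mouse (ratios to sham, Gpnmb per Spp1 UMI and the share of each gene's UMIs in macrophages) were added after the data had been seen, and the seeds of the reported draw were set per nucleus after a first draw. Cd9 pairs above 0 in all 6 mice and the p of the Cd9 share differed between these draws. Depth limits Cd9, Trem2 and Fabp5 most, with a UMI in under 10% of thinned nuclei on average.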
